A study of Mus musculus with 70 samples.

Results

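The comparison set mice with any history of voluntary wheel running against mice that had none, all of which had been trained. Its members were 60 of the 70 dorsal hippocampus RNA-seq libraries of the series, namely 50 libraries of the 5 exercise groups pooled and 10 sedentary libraries. Libraries were assigned by their group labels alone, without reference to any measured value. Adult male C57BL/6J mice, housed individually, were used throughout, and the group names give days of initial exercise, days of sedentary delay and days of reactivating exercise. The exercise groups were 14-0-0 (14 days of exercise), 14-7-0 (14 days followed by 7 sedentary days), 14-7-2 (the same followed by 2 days of exercise), 14-14-0 (14 days followed by 14 sedentary days) and 0-0-2 (2 days of exercise alone), with 10 mice each. Sedentary mice (0-0-0) had no exercise. All 6 groups received a brief, subthreshold acquisition session of object location memory (OLM), a hippocampus-dependent task in which mice learn where objects stand, and tissue was taken an hour later. Home cage mice (0-0-0 without OLM, 10 libraries) were used to see on which side untrained, sedentary animals lay, and were also tested against the exercise mice. Each group had 5 libraries from each of 2 harvest cohorts. The labels do not state how far each mouse ran.

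When neurons fire during learning, calcium and ERK signalling act on transcription factors such as CREB and SRF and switch on immediate early genes within minutes. These include transcription factors (Fos, Egr1, Npas4) and synaptic effectors (Arc). Running is known to change hippocampal trophic signalling and adult neurogenesis in the dentate gyrus. Endoplasmic reticulum (ER) chaperones fold secreted and membrane proteins, and cold-inducible RNA-binding proteins follow body temperature and the daily clock.

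Values were FPKM, a read abundance corrected for transcript length and library size. Differences below are differences of mean log2(FPKM + 0.1), exercise minus sedentary unless stated otherwise, with the standard error (SE) and the unadjusted p of limma's moderated test, and "called" means an unadjusted p under 0.05 among the 12994 genes tested. A p measures the spread between these libraries. Relative depth, read from the size of the smallest FPKM steps, lay between 0.771 and 1.28 times the median library in sedentary mice and between 0.126 and 1.95 times in exercise mice. The lowest value was that of 14-7-0 replicate 4, and the other 69 libraries had at least 0.444 times the median. Sedentary replicate 6 stood apart. Neurod6, a marker of pyramidal neurons, measured 2.45 FPKM there against 78.4 to 269 in the other 69 libraries, and Prox1, the defining factor of dentate granule cells, measured 2.91 against 9.70 to 36.8. The striatal gene Drd2 measured 24.9 FPKM there against at most 13.7 elsewhere. Counts, gene lists and most of the leading differences are therefore also given without this library. In bulk tissue, fewer cells of a type and less RNA per cell cannot be told apart.

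Pooled exercise differed from sedentary in 646 genes called higher (4.97% of 12994) and 434 called lower (3.34%). After Benjamini-Hochberg adjustment 4 genes remained, Egr1, Trib1, Fos and Snora30, all lower with an adjusted p of 0.0381. Without sedentary replicate 6 the counts were 334 higher (2.57%) and 269 lower (2.07%), and no gene passed adjustment (smallest adjusted p = 0.180). The mean of each exercise group lay on the same side of the sedentary mean for 638 of the 646 higher genes and 431 of the 434 lower genes. Over all genes tested, 23.0% had a higher mean in each of the 5 groups and 24.3% a lower mean. These 5 differences share the same 10 sedentary libraries, so their common direction is not a repeated observation. Genes called in the pooled fits both with and without replicate 6, with 1 direction of the mean in all 5 groups, numbered 369. Of these 212 were higher and 157 lower, and no call within a single group was required. Because the fit without replicate 6 had no more calls than that share, membership of this set does not by itself show a response to exercise. The genes below lead that set or belong to lists of pathways and cell types. Counts called within a list are to be read against the shares over all genes, 4.97% higher and 3.34% lower. Without replicate 6 these shares are 2.57% and 2.07%.

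Immediate early genes were lower after exercise. Of 23 list members tested, 9 were called lower (Fos, Fosb, Egr1, Egr4, Arc, Npas4, Nr4a1, Dusp1 and Per1) and 0 higher, with a median difference of -0.25 against 0.00 over all genes. Without replicate 6, 13 were called lower and 0 higher (median -0.27), Egr4 no longer among them and Egr3, Nr4a2, Nr4a3, Dusp6 and Homer1 added. Within the harvest cohorts 7 were lower in cohort 1 and 8 in cohort 2, with 0 higher in either. Over all genes 137 and 626 were called lower in these cohorts. In all 5 exercise groups 14 of the 23 had a lower mean than sedentary.

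Stretches upstream of 3 called members are shown because they carry TGACG, the core of the CREB binding site through which cyclic AMP and calcium signals reach these promoters. Sequences are RefSeq GRCm38.p6, 5′ to 3′ on the gene's own strand, with TGACG or its reverse complement in capitals. The Fos stretch is chr12:85473731-85473858 on the plus strand, with matches 129 and 66 bases before the annotated start. The Npas4 stretch is chr19:4990106-4990180 on the minus strand, and the Fosb stretch is chr7:19310071-19310135 on the minus strand.
Fos: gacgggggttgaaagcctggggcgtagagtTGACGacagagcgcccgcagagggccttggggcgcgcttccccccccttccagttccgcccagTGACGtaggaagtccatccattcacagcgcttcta
Npas4: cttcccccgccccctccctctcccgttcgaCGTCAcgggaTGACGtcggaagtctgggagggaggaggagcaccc
Fosb: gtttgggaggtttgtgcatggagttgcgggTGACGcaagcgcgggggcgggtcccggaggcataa
In the 250 bases before the start, on either strand, TGACG was found in 13 of 18 immediate early genes with a promoter in the table, against 31.0% of 9814 tested genes and 19.8% of all 27025 promoters. All 7 called genes with a promoter held it, as did 6 of 11 that were not called. Egr1, Egr3, Arc, Ier2 and Sik1 had no entry.

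Fos, the founding immediate early transcription factor, measured 3.22, 6.10 and 16.3 FPKM (lowest, median and highest of 10) in sedentary mice. In the 50 exercise libraries it measured 1.88, 3.77 and 7.85 FPKM, and in home cage mice 2.53, 6.27 and 9.86 FPKM. Sedentary replicates 0, 6, 7 and 8 lay above every exercise library, whereas the other 6 sedentary libraries lay within the exercise range, and 48 of 50 exercise libraries were below the sedentary median. The log2 difference was -0.85 (SE 0.18, limma unadjusted p = 1.01e-05), -0.79 without replicate 6, and -0.49 and -1.20 within cohorts 1 and 2. By group it lay between -1.04 in 14-7-2 and -0.69 in 0-0-2.

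Egr1, a zinc finger factor induced alongside Fos, measured 45.9, 69.4 and 99.7 FPKM in sedentary mice against 32.1, 48.5 and 85.2 in exercise mice. Below the sedentary median lay 49 of 50 exercise libraries, and sedentary replicates 0, 7 and 8 exceeded all of them. The difference was -0.52 (SE 0.11, limma unadjusted p = 8.31e-06), -0.49 without replicate 6, and -0.43 and -0.60 within cohorts 1 and 2. Npas4, which neuronal activity induces selectively through calcium, measured 1.22, 2.25 and 5.15 FPKM in sedentary mice and 0.865, 1.64 and 2.80 in exercise mice. Its difference of -0.60 (SE 0.14, limma unadjusted p = 5.04e-05) was -0.65 without replicate 6. Here sedentary replicates 0, 4, 5 and 8 were above every exercise library, a different set from that for Fos. Arc, whose protein acts at activated synapses, measured 20.9, 46.9 and 109 FPKM in sedentary mice and 13.2, 29.7 and 63.8 in exercise mice. The Arc difference was -0.67 (SE 0.18, limma unadjusted p = 0.000519), or -0.69 without replicate 6, with 48 of 50 exercise libraries below the sedentary median and sedentary replicates 0, 7 and 8 above all 50.

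**Figure D1:**
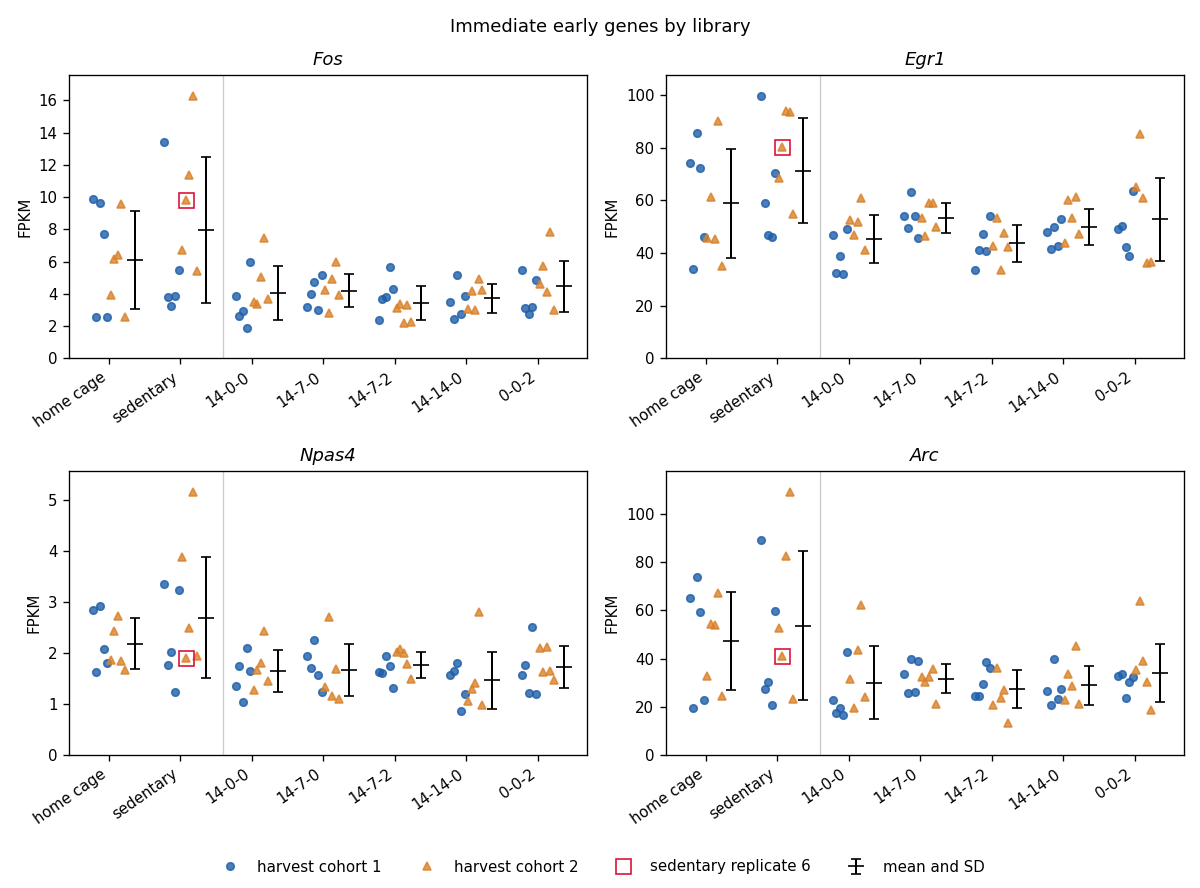
FPKM of Fos, Egr1, Npas4 and Arc (y axes, linear from 0) in each library of the 7 groups, with points coloured by harvest cohort, black bars for the group mean and SD, and a square around sedentary replicate 6. In each panel 3 or 4 sedentary libraries lie above all 50 exercise libraries while the others lie within their range.

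Among the remaining called members, Fosb fell by 0.49 (limma unadjusted p = 0.000579), Nr4a1 by 0.35 (p = 0.0133), Per1 by 0.32 (p = 0.00488) and the MAP kinase phosphatase Dusp1 by 0.25 (p = 0.0159). Egr4 fell by 0.61 (p = 0.0381) and was not called without replicate 6 (p = 0.113). Jun (-0.02), Ier5 (-0.02) and Btg2 (0.01) showed differences near 0. Nr4a3 and Nr4a2 were not called with all libraries (-0.09 and 0.01) and differed by -0.32 each without replicate 6, where their sedentary minima of 5.11 and 1.75 FPKM had come from. Trib1, a pseudokinase that regulates MAP kinase signalling and is no member of the list, measured 2.43, 3.43 and 4.58 FPKM in sedentary and 2.21, 2.63 and 3.54 FPKM in exercise mice. It fell by 0.32 (SE 0.07, limma unadjusted p = 8.52e-06), by 0.28 without replicate 6, with group differences from -0.36 to -0.26. Sedentary replicate 0 was the highest sedentary library for Egr1 and Trib1 and followed replicate 8 for Fos and Arc. Without it 7 of the 23 list members were called lower (median -0.21), and without replicates 0 and 6 together 9 were (median -0.21). Over all genes these fits called 276 and 153 lower.

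Home cage mice, which had no acquisition session, did not share a single position in these genes. Fos, Npas4 and Arc were higher in home cage than in exercise mice, by 0.49 (limma unadjusted p = 0.0074), 0.39 (p = 0.0019) and 0.56 (p = 0.0019). For Fosb the home cage median was 2.15 FPKM, nearer to the exercise median of 2.03 than to the sedentary median of 2.63. Egr4 had a difference of 0.00 between home cage and exercise mice, and Egr1 one of 0.21 (p = 0.068). Of the 23 list members 7 were called higher in home cage than in exercise mice (background 2.25% of all genes) and 1 lower (background 3.26%). The comparison with home cage uses the same 50 exercise libraries as the pooled comparison.

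Genes of protein folding in the ER were lower as well. Of 16 members 9 were called lower after exercise (Hspa5, Pdia6, Calr, Manf, Creld2, Sdf2l1, Hyou1, Xbp1 and Herpud1) and 0 higher, with a median difference of -0.19. Over all genes 3.34% were called lower. The upstream stretches of 5 members are shown because they hold the ER stress element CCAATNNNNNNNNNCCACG, to which the unfolded protein response factor ATF6 binds together with NF-Y. Each is written 5′ to 3′ on the gene's strand from RefSeq GRCm38.p6, with the element or its reverse complement in capitals. Pdia6 lies at chr12:17266461-17266539 (plus), Hspa5 at chr2:34771995-34772073 (plus), Creld2 at chr15:88819490-88819568 (plus), Hsp90b1 at chr10:86705503-86705686 (minus) and Dnajc3 at chr14:118937797-118937875 (plus). Pdia6, Hspa5 and Creld2 were called lower, Creld2 not without replicate 6, and Hsp90b1 and Dnajc3 were not called.
Pdia6: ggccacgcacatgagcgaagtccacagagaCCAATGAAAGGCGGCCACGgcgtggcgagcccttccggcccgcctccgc
Hspa5: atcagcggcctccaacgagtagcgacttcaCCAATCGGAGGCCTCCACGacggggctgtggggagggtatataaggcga
Creld2: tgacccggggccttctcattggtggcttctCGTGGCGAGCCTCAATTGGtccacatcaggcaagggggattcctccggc
Hsp90b1: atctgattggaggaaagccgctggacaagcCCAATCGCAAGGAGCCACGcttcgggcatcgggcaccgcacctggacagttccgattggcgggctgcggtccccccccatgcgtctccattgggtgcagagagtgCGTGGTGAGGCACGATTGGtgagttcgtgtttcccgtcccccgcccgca
Dnajc3: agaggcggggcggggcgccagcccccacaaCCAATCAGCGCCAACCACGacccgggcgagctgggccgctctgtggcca
The element, searched on both strands in the 250 bases before the start, occurred in 7 of 14 matched chaperone genes, against 0.132% of the 9814 tested genes and 0.13% of all promoters. It was present in 4 of 7 matched genes called lower (Hspa5, Pdia6, Calr and Creld2) and in 3 of 7 not called (Hsp90b1, Canx and Dnajc3). Manf and Hyou1 had no entry.

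Pdia6, a protein disulfide isomerase, measured 48.9, 56.8 and 89.6 FPKM in sedentary mice and 36.9, 49.8 and 73.9 FPKM in exercise mice, with home cage mice at 46.9, 65.9 and 78.0. Below the lowest sedentary library lay 21 of 50 exercise libraries, and sedentary replicate 0 alone exceeded all 50. The difference was -0.28 (SE 0.07, limma unadjusted p = 0.000439), -0.26 without replicate 6, and -0.31 and -0.25 within cohorts 1 and 2. By group it ran from -0.44 in 14-7-2 to -0.13 in 14-14-0, and the F test among exercise groups gave p = 0.0151. Hspa5, the ER Hsp70 also known as BiP, measured 94.7, 108 and 194 FPKM in sedentary and 65.7, 97.4 and 186 FPKM in exercise mice. It fell by 0.28 (SE 0.10, limma unadjusted p = 0.00844), by 0.24 without replicate 6, by 0.47 in 14-7-2 and by 0.06 in 14-14-0 (p = 0.7).

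Calr, a calcium-binding lectin chaperone, fell by 0.19 (limma unadjusted p = 0.00656), and Hyou1, an ER Hsp110, by 0.19 (p = 0.00169). Xbp1, a transcription factor of the unfolded protein response, fell by 0.22 (p = 0.011), and Sdf2l1 fell by 0.30 (p = 0.0183). Canx (-0.02), Dnajc3 (0.02), Sel1l (0.02) and Pdia3 (-0.05) were not called. Without replicate 6 the list had 6 members called lower (median -0.15), Manf, Creld2 and Herpud1 no longer among them, and within cohorts it had 5 and 2. The count depended more on sedentary replicate 0, without which 4 were called lower (median -0.13). Without replicates 0 and 6 together 1 was (median -0.08), against 9 with all libraries. When the choroid plexus score of each library was added to the fit, 14 were. Over all genes, lower calls numbered 434 with all libraries, 269 without replicate 6, and 137 and 626 within cohorts 1 and 2. They numbered 276 without replicate 0, 153 without replicates 0 and 6, and 333 with the choroid plexus score.

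Against home cage mice, which is a comparison without the sedentary libraries, 13 of the 16 chaperones were called higher in home cage than in exercise mice and 0 lower, with a median difference of 0.24. Over all genes 2.25% were called higher in home cage mice and 3.26% lower. Pdia6 was 0.36 higher in home cage mice (limma unadjusted p = 6.5e-06, adjusted p = 0.0121) and Calr 0.28 higher (p = 4.1e-05, adjusted p = 0.0356). Home cage mean levels were nearer to the sedentary than to the exercise mean for all but 2 of the 16 members. For Hspa5 all 10 home cage libraries were above the exercise median.

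The cold-inducible RNA-binding proteins moved the other way. Cirbp measured 28.1, 36.6 and 47.7 FPKM in sedentary mice, 29.6, 43.8 and 64.0 FPKM in exercise mice and 23.7, 36.2 and 46.2 FPKM in home cage mice. Above the sedentary median lay 45 of 50 exercise libraries, and 17 exceeded the highest sedentary library. The difference was 0.27 (SE 0.08, limma unadjusted p = 0.000839), 0.31 without replicate 6, and 0.29 and 0.26 within cohorts 1 and 2. Home cage mice were 0.35 below exercise mice (p = 5.0e-05, adjusted p = 0.0405). Rbm3 measured 50.5, 73.7 and 110 FPKM in sedentary and 65.2, 93.2 and 124 FPKM in exercise mice, with 47 of 50 exercise libraries above the sedentary median. It rose by 0.33 (SE 0.09, limma unadjusted p = 0.000394), from 0.52 in 14-7-2 to 0.14 in 14-14-0 (F test p = 0.00142), and by 0.27 without replicate 6. Within cohorts the difference was 0.24 in cohort 1, where it was not called (p = 0.0897), and 0.42 in cohort 2, and home cage mice were 0.32 below exercise mice.

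Cytosolic heat shock genes in the same list of 12 showed 2 called lower and, apart from Cirbp and Rbm3, 0 called higher. Hspa8, the constitutive Hsp70, measured 938, 1199 and 1322 FPKM in sedentary and 834, 1024 and 1185 FPKM in exercise mice, and all 50 exercise libraries lay below the sedentary median. It fell by 0.14 (SE 0.04, limma unadjusted p = 0.00279). The Hsp40 cochaperone Dnajb1 fell by 0.22 (p = 0.00362). The classical heat-inducible genes Hspa1a (-0.16, p = 0.36) and Hspa1b (-0.33, p = 0.105) were not called.

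**Figure D2:**
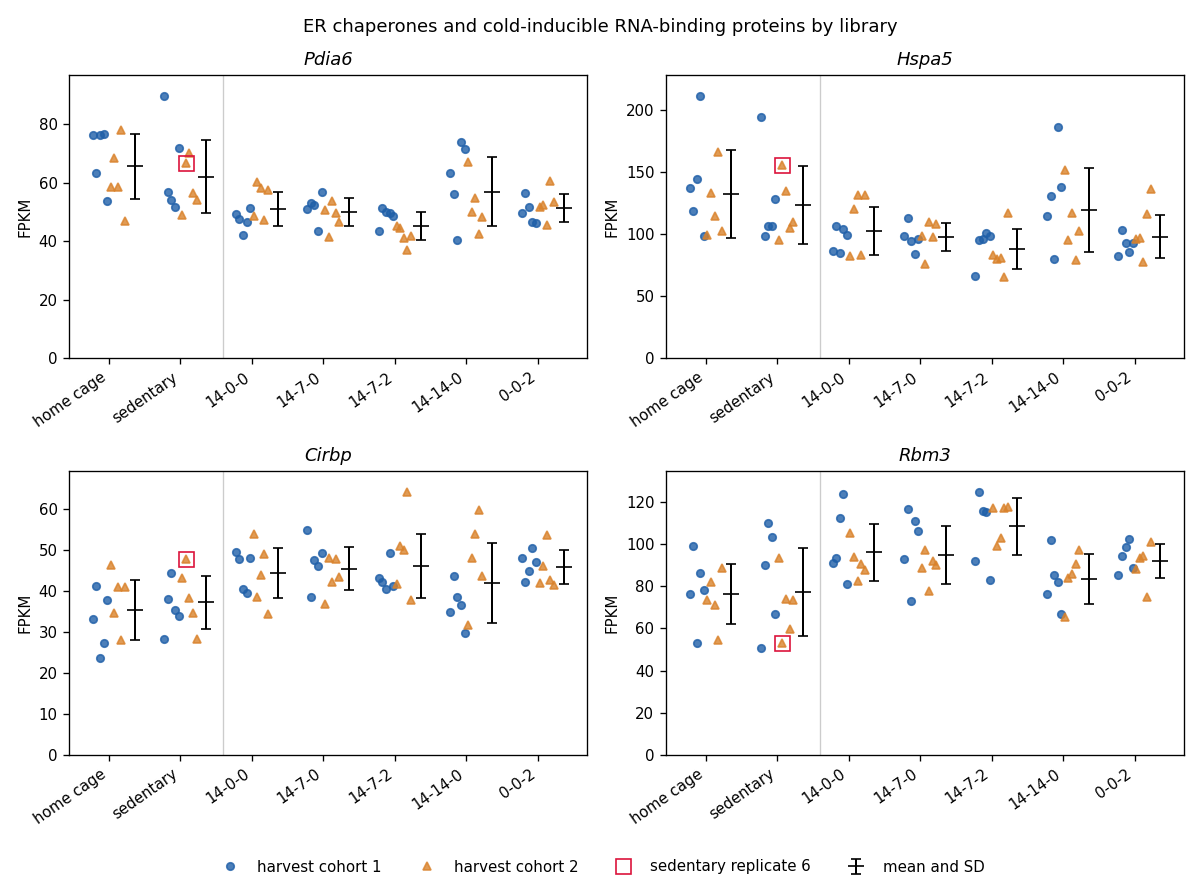
FPKM of the ER chaperones Pdia6 and Hspa5 and of the cold-inducible genes Cirbp and Rbm3 (y axes, linear from 0) by library and group, coloured by harvest cohort, with black bars for the group mean and SD and a square around sedentary replicate 6. Of the 50 exercise libraries, 41 lie below the sedentary median for Pdia6 and 36 for Hspa5, and 45 lie above it for Cirbp and 47 for Rbm3.

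Of 17 clock genes 6 were called lower (Per1, Per2, Per3, Cry1, Tef and Ciart) and 1 higher (Arntl), with a median difference of -0.11. The lower genes are repressors or outputs of the daily feedback loop, and Arntl encodes the activator BMAL1. Stretches of 3 of them are given because they hold the E-box CACGTG, the site of BMAL1 and CLOCK, in capitals (RefSeq GRCm38.p6, 5′ to 3′ on the gene's strand). Ciart lies at chr3:95882237-95882374 (minus), Per1 at chr11:69098753-69098818 (plus) and Tef at chr15:81802516-81802581 (plus).
Ciart: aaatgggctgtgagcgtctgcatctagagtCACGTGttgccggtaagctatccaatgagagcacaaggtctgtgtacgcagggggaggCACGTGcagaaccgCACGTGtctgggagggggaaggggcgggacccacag
Per1: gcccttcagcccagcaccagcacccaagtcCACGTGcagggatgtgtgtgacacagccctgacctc
Tef: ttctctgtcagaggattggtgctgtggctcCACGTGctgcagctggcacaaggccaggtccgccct
CACGTG was found within 250 bases of the start in 5 of 15 matched clock genes, against 10.1% of tested genes and 6.86% of all promoters. Of the called lower genes 4 of 5 matched ones held it, and 1 of the other 10 did. This split is for all libraries. Without replicate 6 Cry1, which held the E-box, was no longer called, and the newly called Nr1d2 and Npas2 did not hold it. Per2 and Bhlhe40 had no entry.

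Per2 measured 5.70, 7.18 and 10.7 FPKM in sedentary mice, 4.33, 6.19 and 7.66 FPKM in exercise mice and 3.80, 5.58 and 8.46 FPKM in home cage mice. Home cage mice thus had the lowest median of the 3. The difference was -0.29 (SE 0.07, limma unadjusted p = 0.000197), -0.33 without replicate 6, and -0.39 and -0.19 within cohorts 1 and 2. Ciart, a repressor of BMAL1 activity, measured 3.78, 4.96 and 7.60 FPKM in sedentary and 2.09, 3.83 and 6.55 FPKM in exercise mice. It fell by 0.40 (SE 0.12, limma unadjusted p = 0.00199), by 0.36 without replicate 6, by 0.71 in 14-0-0 and by 0.18 in 14-7-0. Arntl rose by 0.23 (SE 0.07, limma unadjusted p = 0.00301) and by 0.17 without replicate 6, from 8.22, 12.1 and 13.9 FPKM to 9.64, 14.1 and 18.3. It differed among exercise groups (F test p = 0.00017), with 0.36 in 14-0-0 and -0.01 in 14-14-0. Without replicate 6 the list had 6 lower and 2 higher, with Cry1 no longer called and Nr1d2 and Npas2 added. Within cohorts, 4 lower with 0 higher and 2 lower with 1 higher were called. The labels give the cohort but no hour of tissue collection for single mice.

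The 24 leading genes were the 12 in each direction with the smallest p in the weaker of the fits with and without replicate 6. The 12 lower genes were Fos, Egr1, Npas4, Arc, Trib1, Snora30, Per2, Pdia6, Srrt, Med20, Sema5b and Tra2a. Srrt, a partner of the nuclear cap-binding complex, measured 24.7, 32.7 and 38.5 FPKM in sedentary and 19.0, 26.5 and 32.0 FPKM in exercise mice, and all 50 exercise libraries lay below the sedentary median. It fell by 0.27 (SE 0.06, limma unadjusted p = 5.29e-05) and by 0.24 without replicate 6. The splicing factor Tra2a fell by 0.25, the semaphorin Sema5b by 0.32 and the Mediator subunit Med20 by 0.16. Home cage medians of Srrt and Tra2a were 29.0 and 37.4 FPKM, against 26.5 and 31.5 in exercise mice.

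Snora30, a small nucleolar RNA that guides pseudouridylation, passed adjustment but rested on few reads. It was listed at 0 in 4 of 10 sedentary, 46 of 50 exercise and 7 of 10 home cage libraries, and reached 646 FPKM in a sedentary library and 474 FPKM in an exercise library. Read from the size of the FPKM steps, these values stood for 1 to 3 reads per library. They summed to 9 reads over 6 sedentary libraries, 6 over 4 exercise libraries and 4 over 3 home cage libraries, each within 0.07 of a whole number. No fold change is given for it.

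The 12 higher genes were Cirbp, Rbm3, Ift57, Armcx5, Fam204a, Pigp, Parn, Ehhadh, Ino80c, Mansc1, 8430429K09Rik and Sat2. Ift57, a component of intraflagellar transport in the primary cilium, measured 13.9, 17.5 and 20.4 FPKM in sedentary and 17.4, 20.002 and 24.3 FPKM in exercise mice. Above the sedentary median lay 49 of 50 exercise libraries, with a difference of 0.19 (SE 0.04, limma unadjusted p = 8.51e-05), 0.15 without replicate 6, and from 0.15 to 0.25 across groups. It was the only called member of 20 cilia genes. Parn, a poly(A)-specific ribonuclease, rose by 0.18 (p = 0.000277), and Armcx5 rose by 0.21 (p = 0.000441). Pigp, an enzyme subunit of glycosylphosphatidylinositol anchor synthesis, rose by 0.27 (p = 0.00177), and the polyamine-related acetyltransferase gene Sat2 by 0.25 (p = 0.00169). Ehhadh, a peroxisomal beta-oxidation enzyme, rose by 0.32 (p = 0.00211), and its home cage median of 1.68 FPKM equalled the exercise median while the sedentary median was 1.35. The chromatin remodelling subunit Ino80c rose by 0.13 (p = 0.000819) with 48 of 50 exercise libraries above the sedentary median. Mansc1 rose by 0.41 with all libraries and by 0.22 without replicate 6, where it measured 1.07 FPKM.

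**Figure D3:**
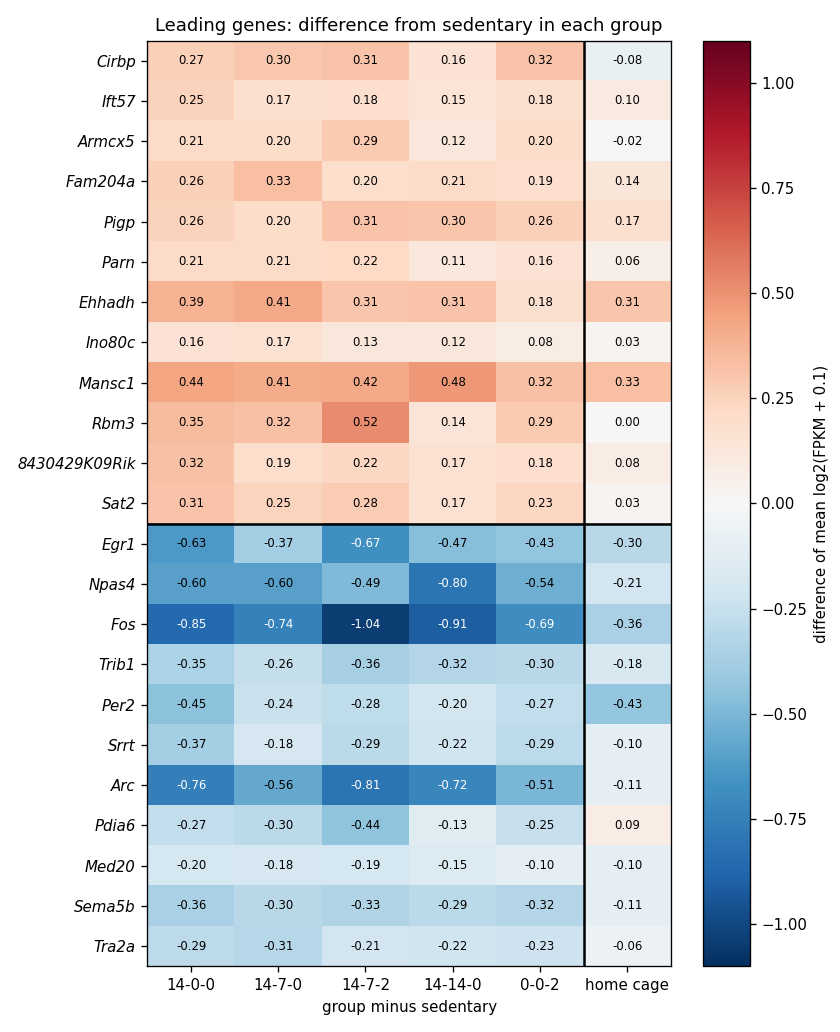
Difference of mean log2(FPKM + 0.1) from sedentary (colour, limited to 1.1 in either direction) for the leading genes except Snora30 (rows) in the 5 exercise groups and home cage (columns). The exercise columns share a sign for every gene because this was a condition of the selection. Home cage, which was no part of it, has the opposite sign for Cirbp, Armcx5 and Pdia6.

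Many genes were called only with sedentary replicate 6 in the comparison. Without it, 429 of the 646 higher and 273 of the 434 lower genes were no longer called, and for 347 of those 429 this library had the lowest sedentary value. A further 117 higher and 108 lower genes were called only without it. Dentate granule cell markers went from 4 called higher of 10 (median 0.33) to 0 (median 0.05), and ionotropic glutamate and GABA-A receptor subunits from 4 of 22 to 0. Prox1 measured 2.91, 21.6 and 30.9 FPKM in sedentary mice and 9.70, 23.4 and 36.8 in exercise mice, with a difference of 0.39 (limma unadjusted p = 0.0329) that was 0.11 without replicate 6. The GABA-A subunit Gabra5 gave 0.34 and 0.08 in the same order. Sprn, Orai3, Cntn1 and Mfsd4 had the smallest p among higher genes lost, with differences of 0.23, 0.20, 0.15 and 0.38 that became 0.08, 0.10, 0.08 and 0.16. Among lower genes lost, Slc27a2, Insc, Fkbp4 and Dlx1as went from -0.28, -0.39, -0.18 and -0.31 to -0.18, -0.21, -0.11 and -0.19. The tissue composition of this library was not tested as a cause.

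**Figure D4:**
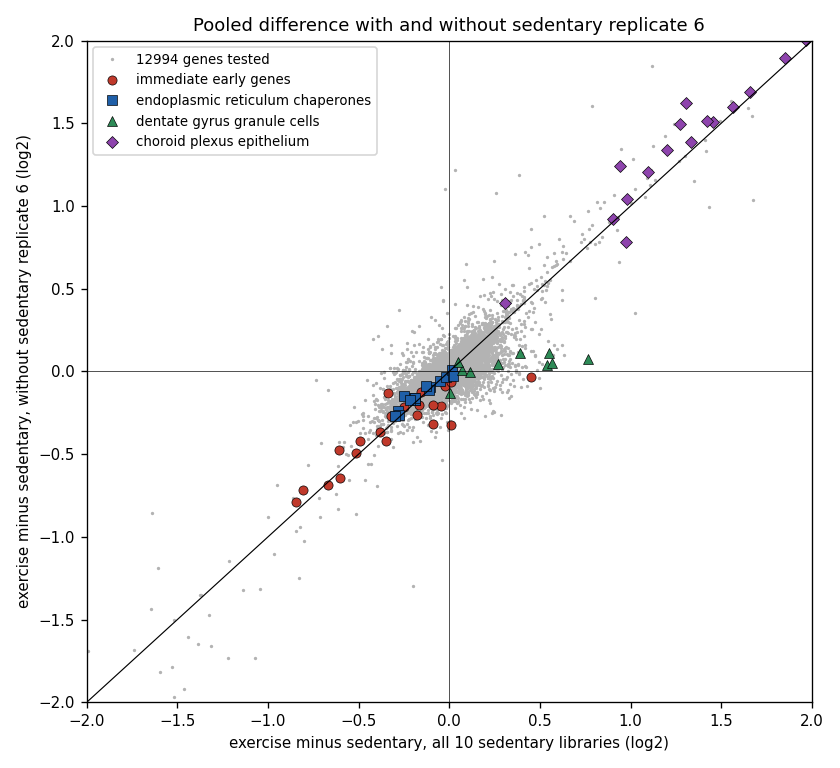
Pooled log2 difference of each tested gene with all 10 sedentary libraries (x axis) and without sedentary replicate 6 (y axis), axes limited to 2 in either direction, which leaves out 11 genes. Grey points are the 12994 genes, coloured symbols are 4 gene lists and the line marks equal values. Most immediate early genes (20 of 23) and ER chaperones (14 of 16) lie below 0 on the x axis, and most dentate granule cell markers lie near 0 on the y axis.

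A list of 21 genes that the study drew from these same libraries had 19 called higher (median 0.27), and without replicate 6 only Rragd was called (0.21, limma unadjusted p = 0.0032, median of the list 0.07). Because the list was chosen on these samples, its direction is not independent evidence. The study listed these genes as higher than sedentary in 14-0-0 and 14-7-2 only. For Acvr1c it also reported higher RT-qPCR levels in these samples and, after 14 days of exercise, in a separate cohort. Its linear regression models listed Acvr1c and Bdnf as higher too. None of this further evidence was examined here. The pool also holds 14-7-0, 14-14-0 and 0-0-2, so its differences, that of Bdnf included, are not the ones the study tested. Acvr1c, the type I activin receptor ALK7, measured 1.30, 3.76 and 4.64 FPKM in sedentary and 2.08, 4.24 and 6.37 FPKM in exercise mice. The pooled difference was 0.36 (permutation p = 0.00812, 0.0162 after adjustment over both genes), and 0.22 without replicate 6 (permutation p = 0.0728, adjusted 0.146). It ranged from 0.12 in 14-14-0 to 0.55 in 14-7-2, and the F test among exercise groups gave p = 0.00529. Bdnf, the neurotrophin most often tied to running, measured 1.18, 20.7 and 22.9 FPKM in sedentary and 10.7, 20.5 and 30.8 FPKM in exercise mice. Its difference was 0.43 (permutation p = 0.0614) and 0.03 without replicate 6 (permutation p = 0.781), the library that held the value of 1.18.

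Of 18 members of the activin and TGF-beta family, 1 was called higher (Acvr1c) and 1 lower (Inhbb). Inhbb, the activin beta B subunit and thus a ligand gene of this receptor family, measured 1.15, 1.76 and 2.49 FPKM in sedentary and 0.351, 1.37 and 2.43 FPKM in exercise mice. It fell by 0.41 (SE 0.14, limma unadjusted p = 0.00558) and by 0.38 without replicate 6, with home cage mice 0.44 above exercise mice (p = 0.0032). Of 15 neurotrophic and exercise-linked factors 2 were called higher, Bdnf and Igf2, and 0 lower. With the choroid plexus score of each library in the fit, 1 member was called higher and 1 lower. The Igf2 range in exercise mice (8.48, 15.7 and 198 FPKM) reached far above the sedentary range (8.74, 11.8 and 22.8). Without replicate 6 Igf2 was called higher (0.81, limma unadjusted p = 0.0497) and Bdnf was not called. Among 10 adult neurogenesis genes Neurod1 was called higher and Nes lower. The list median was 0.01 (0.02 without replicate 6), with 5 members above 0 and 5 below with all libraries. Eomes, Draxin, Mki67, Top2a and Cdk1 fell below the minimum mean and were not tested. Without replicate 6 the called genes were Dcx (0.22) and Igfbpl1 (0.71, limma unadjusted p = 0.00108), both expressed in newborn neurons, and again Nes (-0.16), a marker of neural stem cells and vessels. Igfbpl1 measured 10.9 FPKM in replicate 6 and at most 2.59 in the other sedentary libraries, and its difference was 0.85 in cohort 1 and, without replicate 6, 0.56 in cohort 2 (limma unadjusted p = 0.084).

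Choroid plexus genes varied widely between libraries. Of 17 markers 8 were called higher (median 1.31), with 0 lower. Ttr, the transthyretin gene that defines this epithelium, measured 15.5, 74.4 and 344 FPKM in sedentary, 15.6, 109 and 21244 FPKM in exercise and 59.6, 112 and 15187 FPKM in home cage mice. Above the highest sedentary library lay 18 of 50 exercise and 3 of 10 home cage libraries, and most exercise libraries were within the sedentary range. The summed FPKM of the list was 81.4, 165 and 517 in sedentary, 65.9, 214 and 25069 in exercise and 150, 244 and 17624 in home cage mice. No marker was at 0 in any sedentary or home cage library, and 7 were at 0 in at least 1 exercise library. Without sedentary replicate 0, which had the lowest Ttr, 1 marker was called. The meningeal list had 3 of 10 called higher and its summed FPKM had a median of 45.8 and a highest value of 242 in exercise mice, against a median of 39.2 in sedentary mice. The part of this tissue in other differences was not tested beyond the fit with its score as a covariate, in which all 24 leading genes remained called. These 24 had been selected for a small p in the same libraries.

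The remaining lists had few called members. Over all genes 4.97% were called higher and 3.34% lower, so calls of 1 or a few members are not read as results about a list. Of the glucocorticoid-responsive genes 1 of 11 was called higher, Sgk1, a kinase gene induced by glucocorticoids, by 0.33 (limma unadjusted p = 0.011). Among cholesterol genes Nsdhl was called higher (0.20) and Ebp lower (-0.13) of 24. Of 13 histone deacetylases Hdac9 was called higher (0.16) and Hdac8 lower (-0.14), both also without replicate 6. Lactate, ketone and glucose handling had 1 higher and 1 lower of 14 (Pdk1 and Slc2a3). Inhibitory neuron markers had 1 lower of 11, the interneuron factor Lhx6 (-0.21), and oligodendrocyte precursors 1 lower of 8 (Sox10). Small non-coding RNA genes had 3 higher and 5 lower of 95, and Mir744 and Snora5c, called lower, were at 0 in all 50 exercise libraries and above 0 in 1 sedentary library each. Cytosolic ribosomal proteins had 1 lower of 77, complexes III, IV and V 1 higher of 34 and endothelial cells 1 higher of 10. No member was called among 37 complex I genes, 12 myelin genes, 10 astrocyte genes, 11 microglia genes, 10 pyramidal cell genes, 9 thalamic, 6 striatal and 7 neocortical genes. The myelin median was -0.20 with all libraries and -0.08 without replicate 6.

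**Figure D5:**
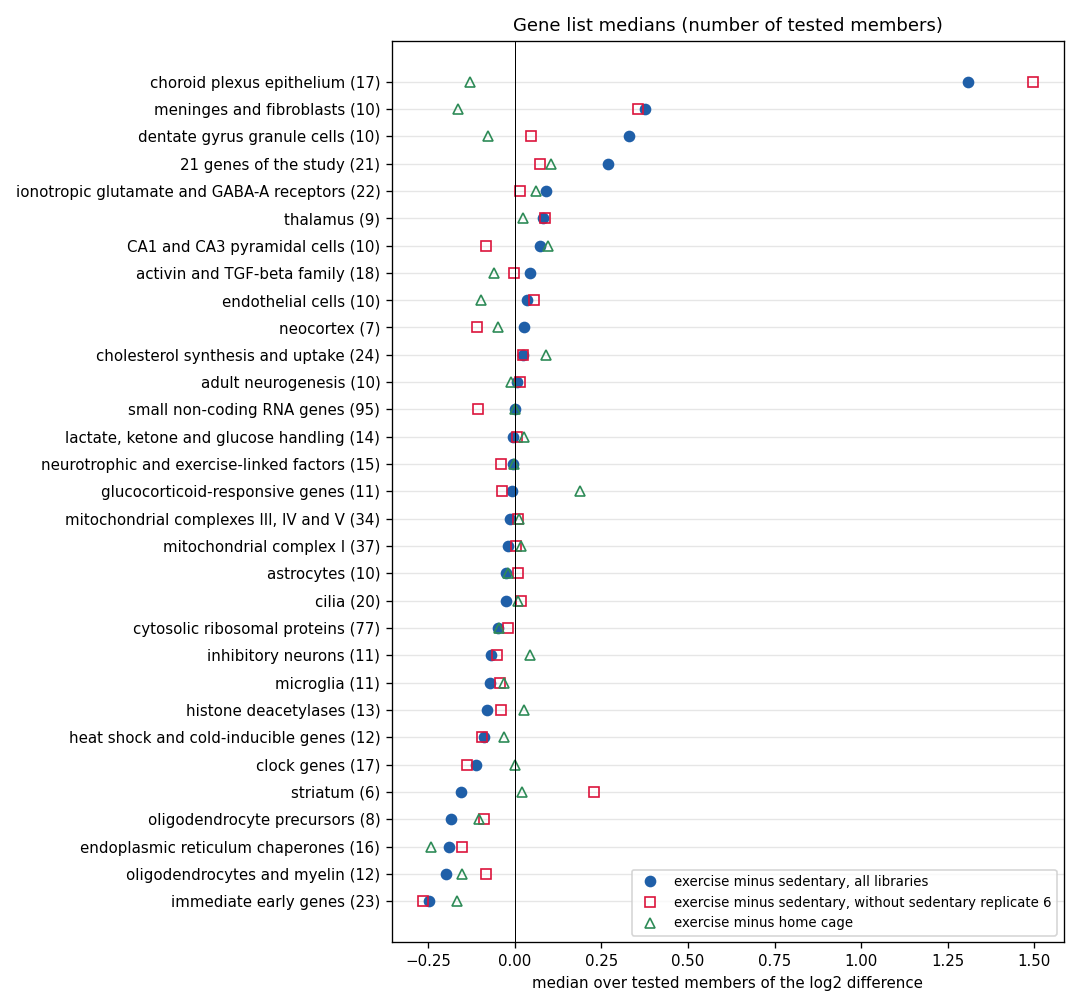
Median log2 difference of each gene list (x axis, exercise minus sedentary) over its tested members, with all sedentary libraries (circles), without replicate 6 (squares) and as exercise minus home cage (triangles). Numbers beside the names are tested members. ER chaperones lie at -0.19, -0.15 and -0.24 in these 3, and dentate granule cells go from 0.33 to 0.05 without replicate 6.

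Home cage mice sided with neither group as a whole. Their mean was nearer to the exercise than to the sedentary mean for 60.4% of all genes tested, for 348 of the 638 genes higher in all 5 groups (54.5%) and for 266 of the 431 lower genes (61.7%). The pooled exercise mean rests on 50 libraries and the sedentary mean on 10. Called genes were also chosen for a sedentary mean far from the exercise mean. The share over all genes is therefore not an expected level for them, and no conclusion is drawn from the difference. Without replicate 6 the shares were 59.6%, 59.1% and 59.4%. Of the 212 higher genes called in both fits, home cage lay on the exercise side in both for 106 and on the sedentary side for 84, and of the 157 lower genes for 79 and 64. Ehhadh, Ciart, Per1, Per2, Arntl and Fosb were on the exercise side. Fos, Npas4, Arc, Pdia6, Cirbp, Rbm3 and Armcx5 were on the sedentary side.

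Tested directly against exercise, home cage mice had 292 genes called higher and 424 called lower, and 16 genes passed adjustment, 8 in each direction. The smallest p belonged to Nfkbia, an inhibitor of NF-kappaB, at 9.46 ± 1.40 FPKM (SD, n = 10) in home cage, 13.5 ± 2.01 (n = 50) in exercise and 12.9 ± 2.46 (n = 10) in sedentary mice. Its home cage minus exercise difference was -0.51 (limma adjusted p = 3.35e-05) and its exercise minus sedentary difference 0.07 (limma p = 0.374). Sgk1 measured 29.5 ± 5.69 FPKM in home cage, 42.3 ± 6.09 in sedentary and 54.7 ± 15.2 in exercise mice, so that the 3 groups stood in order. All 10 home cage and all 10 sedentary libraries lay below the exercise median of 52.6 FPKM. Plekhf1, a lysosome-associated gene, was 0.84 lower in home cage than in exercise mice, and its exercise minus sedentary difference was -0.13 (0.01 without replicate 6). The other genes that passed were Mc4r, Hrk, Arrdc2, Pdia6, Igfbp5, Tsc22d3, Zfp36l1, 2810459M11Rik, Htr2a, Nes, Sertad3, Calr and Cirbp. These differences and the pooled ones share the 50 exercise libraries and are not independent.

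The 5 exercise groups differed among themselves in 913 genes by an F test (7.03% of 12994), and 14 passed adjustment. The 3 smallest p were those of Acss2, Zfp180 and Cyp51, and 8 of the 14 belong to the list of cholesterol synthesis and uptake, which holds 24 of the 12994 genes tested (among them Cyp51, Nsdhl, Hmgcs1, Sc5d, Msmo1 and Idi1), whose median pooled difference was 0.02. Hmgcs1, a synthase early in that pathway, had group means of 88.9 FPKM in 14-0-0, 71.1 in 14-7-0, 89.4 in 14-7-2, 77.7 in 14-14-0 and 96.1 in 0-0-2 (limma F test adjusted p = 0.0220). The groups in which a sedentary delay was not followed by further exercise, 14-7-0 and 14-14-0, had the lowest means for Hmgcs1, Msmo1 and Idi1. Of the 369 genes called in both fits, 50 had an F test p under 0.05, among them Rbm3, Pdia6, Per2, Ciart and Arntl. For Fos (p = 0.383), Npas4 (p = 0.354) and Trib1 (p = 0.67) a difference between schedules was not detected.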

How the data were processed

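RNA was measured in 70 libraries of bilateral dorsal hippocampus, 10 in each of 7 groups. The authors extracted RNA with RNeasy kits, made TruSeq poly-A libraries, aligned short single reads with ELAND v2e and Bowtie, kept unique alignments and derived the deposited FPKM values by the Tuxedo protocol, without pooling replicates. The submitters' processing notes name mm10, Bowtie and Cuffnorm, with no versions. How Cuffnorm scaled the libraries is not given in the sources used here.

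A mean of 1 FPKM or more across the 70 libraries was reached by 12994 of 24346 genes, and the other 11352 were not tested. log2(FPKM + 0.1) values were fitted in limma 3.58.1 (R 4.3.3, trend, two-sided), with no covariates, 50 exercise against 10 sedentary libraries. An unadjusted p under 0.05 made a call, as in the study, with Benjamini-Hochberg adjustment over 12994 genes. A pseudocount of 0.1 understates changes of low genes. Each exercise group and home cage were fitted likewise, and the F test used the 50 exercise libraries. Home cage was put on the side of the nearer mean. Acvr1c and Bdnf had permutation tests (two-sided, 100000 resamples). The script was tested on simulated data.

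Named genes were the 12 in each direction with the smallest larger p of the fits with and without sedentary replicate 6 (called in both, 1 direction in all 5 groups), the 4 in each direction of smallest p lost without it, up to 4 members of each of 31 gene lists, Acvr1c, Bdnf and the 3 genes of smallest p between home cage and exercise. Further members of the immediate early, chaperone, heat shock and clock lists, the genes that passed adjustment between home cage and exercise or in the F test, and other members called in a list were named after their values were seen. Members and lists were chosen with earlier results of these data known. Relative depth came from the smallest FPKM steps of 1578 genes, for which 92.4% of 2415 library pairs lay within 0.1 log2 of the estimate. Read counts are not part of these values, so no counting interval is given. Promoters are RefSeq GRCm38.p6, the same build as mm10. Other settings (pseudocount, filter, scaling, covariates, cohorts, libraries or groups left out, weights, Cyber-T, threshold) numbered 30. The fits without sedentary replicates 0 and 6 together, the lists without replicate 0 and cohort 2 without replicate 6 were added after seeing the data. Figures were drawn with matplotlib 3.10.9. A few genes and their values are not reported here.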

Additional observations from a re-analysis of the deposited data

Results flagged for a closer look

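Over 24 leading genes and 7 groups, 168 groups of 10 libraries were searched for a highest or lowest library separated from the others (Dixon's test at the 95% level). It marked 15, where chance alone gives about 1 in 20, or 8.4. High libraries were Cirbp in 14-7-2 replicate 8 (64.0 FPKM), Ift57 and Ino80c in 14-14-0 replicate 1 (23.1 and 14.4 FPKM), Pigp in 14-7-2 replicate 9 and 0-0-2 replicate 9 (65.8 and 56.7 FPKM), Mansc1 in 0-0-2 replicate 9 (7.35 FPKM), Npas4 in 14-14-0 replicate 8 (2.80 FPKM) and Arc in 0-0-2 replicate 6 (63.8 FPKM). Snora30 was high in 14-7-2 replicate 5, 14-14-0 replicate 8 and 0-0-2 replicate 2 (338, 474 and 224 FPKM), each among libraries at 0. Low libraries were Mansc1 in sedentary replicate 6 (1.07 FPKM) and Srrt in 0-0-2 replicate 9 (19.0 FPKM). The library of lowest relative depth, 14-7-0 replicate 4, was highest of its group for Med20 (14.1 FPKM) and lowest for Tra2a (19.0 FPKM).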

How the results depend on the processing

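All 24 leading genes kept their direction in every alternative, and lost calls arose with Cyber-T (Ino80c and 8430429K09Rik), cohort 1 (Pigp and Rbm3), cohort 2 (Ehhadh, 8430429K09Rik, Per2 and Sema5b) and cohort 2 without sedentary replicate 6 (8). These genes were selected on the same libraries, for small p with and without replicate 6 and 1 direction in all 5 groups. Their stability was thus largely set by the selection and is not independent support. A minimum mean of 5 FPKM tested 18 of them. The 646 higher calls became 143 in cohort 1, 348 without 14-0-0, 226 by Cyber-T, 136 at p under 0.01, 214 in cohort 2 without sedentary replicate 6, 224 without sedentary replicates 0 and 6, and 334 to 875 when a single sedentary library or 14-7-0 replicate 4 was left out. For the 434 lower calls the same order gave 137, 281, 160, 93 and, without both, 153, with 269 to 710 on leaving out 1 library (276 without replicate 0, 710 without 3, 269 without 6). Called genes with 1 direction, 1069, became 271 in cohort 1, 594 to 1509 on leaving out 1 library, 627 without 14-0-0, 358 by Cyber-T, 227 at p under 0.01, 568 and 371 in the added fits. The 4 adjusted calls became 0 to 7 on leaving out 1 library, 0 with a minimum mean of 5 FPKM, in the joint fit, in either cohort, with the choroid plexus covariate, by Cyber-T and in both added fits, 10 with sample weights, and 0 or 1 when an exercise group was left out.

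The share of called genes with home cage on the exercise side, 57.4%, varied between settings. Called genes share the same libraries and are not independent, so this share is given without an interval. It was 61.2% with median ratio scaling, 64.3% with quantile normalization, 43.2% and 73.6% in cohorts 1 and 2, and 57.5% to 70.4% on leaving out 1 library. It was 53.3% without 14-7-0, 64.5% without 14-7-2, 45.4% without 14-14-0 and 60.7% without 0-0-2, and with sample weights, the choroid covariate, Cyber-T and p under 0.01 it was 51.1%, 47.5%, 70.9% and 48.9%. The added fits gave 69.7% and 62.8%. Bdnf reversed to -0.10 in cohort 2 without sedentary replicate 6. Plekhf1 (-0.13) changed sign to 0.0554 in cohort 1, 0.00459 with sample weights and 0.0634 without replicates 0 and 6, and ranged from -0.227 to 0.00656 on leaving out 1 library. The cause was not tested.

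Replicate numbers are shared between groups and were not taken as pairs in the main fit. Of 50 same-numbered pairs with sedentary, 21 had deviations correlated above 0.1 (median 0.07). The median was -0.02 for other numbers of the same cohort, and whether the numbers mark a shared block is not settled by these values. The replicate block gave 791 higher and 758 lower calls, against 646 and 434 without it. It put home cage on the exercise side for 64.5% of called genes. Depth limits the low genes, Snora30 above all.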
